A study of Mus musculus with 2 samples.

Results

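The genes described here are those of the insulin-like growth factor (IGF) system, taken as the rows of the deposited feature table whose symbol is that of an IGF ligand (Igf1, Igf2), an IGF receptor (Igf1r, Igf2r) or an IGF binding protein (Igfbp2 to Igfbp7). All 10 symbols were found, among 32285 genes in all. They were measured by single-cell RNA sequencing of dorsal meninges from male C57BL/6 (C57BL/6J) mice, the membranes that cover the brain. One library held the pooled meninges of 5 mice taken 1 week after a mild closed-skull traumatic brain injury (TBI), and the other those of 5 mice taken 1 week after Sham treatment. The labels name no allele or drug, and they put the age of both groups at 10 weeks in one field and at 10 to 12 weeks in another. Live single cells were sorted after enzymatic digestion, and the tissue directly under the hit was not included. Each condition is 1 library, so that no test between Sham and TBI was possible. Intervals given are exact 95% intervals that cover counting error only, and they hold nothing of the spread between mice.

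IGF1 and IGF2 are small secreted hormones related to insulin that promote growth and survival of cells. Both signal through the receptor tyrosine kinase encoded by Igf1r, whereas the receptor encoded by Igf2r, which also carries mannose 6-phosphate-tagged enzymes to lysosomes, takes up and degrades IGF2. The secreted binding proteins hold the ligands in the extracellular fluid, where they can prolong or block their action, and proteases that cleave the binding proteins release the ligand. In the brain and its coverings, IGF2 and IGFBP2 are known as products of the choroid plexus and the meninges.

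Igfbp2 and Igfbp5 are neighbours on chromosome 1 and are transcribed towards each other. In the GRCm38 annotation Igfbp2 (ENSMUSG00000039323) lies at chr1:72824503-72852474 on the plus strand, and Igfbp5 (ENSMUSG00000026185) at chr1:72857932-72874884 on the minus strand. Their start regions are shown because the genes, although adjacent, had different leading cell classes (below). Each sequence runs from 250 bases before to 50 bases after a RefSeq transcription start (GRCm38.p6), 5′ to 3′ on the strand of the gene, with capitals marking each match to the GC box GGGCGG. The letters GGGCGG and TATAAA were searched on both strands. The first is present in 35.7% and the second in 13.6% of 32851 RefSeq promoters of the same length.
Igfbp2 (chr1:72824230-72824529, plus strand): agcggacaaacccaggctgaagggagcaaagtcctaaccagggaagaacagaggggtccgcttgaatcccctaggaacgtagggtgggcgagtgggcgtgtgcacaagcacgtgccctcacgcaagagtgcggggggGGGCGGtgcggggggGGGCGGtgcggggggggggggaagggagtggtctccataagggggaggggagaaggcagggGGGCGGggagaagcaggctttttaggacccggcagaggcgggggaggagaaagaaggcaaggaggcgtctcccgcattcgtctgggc
Igfbp5 (chr1:72874816-72875115, minus strand): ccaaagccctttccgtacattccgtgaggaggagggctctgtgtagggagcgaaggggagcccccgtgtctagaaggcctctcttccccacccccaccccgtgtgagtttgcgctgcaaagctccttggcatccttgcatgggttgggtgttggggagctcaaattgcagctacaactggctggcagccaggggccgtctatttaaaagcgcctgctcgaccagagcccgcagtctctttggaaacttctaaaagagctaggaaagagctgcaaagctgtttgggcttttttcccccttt
The Igfbp2 window holds 3 matches to GGGCGG and none to TATAAA, and the Igfbp5 window holds neither. RefSeq lists a second Igfbp2 start, whose window (chr1:72825137-72825436) holds neither motif.

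The filters left 2043 Sham and 3773 TBI cells with 7866611 and 13940740 UMIs (unique molecular identifiers, each counting 1 captured transcript), and median depths of 2764 and 2663 UMIs per cell. Cells were clustered without the IGF genes and named from marker genes, which gave 19 named classes, of which 16 held at least 20 cells in both libraries. The libraries shared 14 of the kept barcodes. Fibroblast-like cells made up 6.61% of Sham cells (135 cells) and 20.7% of TBI cells (781), and held 4.80% and 16.6% of the UMIs, which bears on every whole-library value below. A level is the share of a gene in the UMIs of the class, in counts per 1000000 (CPM). Levels were compared within a gene, except where UMIs of Igfbp5 are given per UMI of Col1a1 or Dcn.

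**Figure D1:**
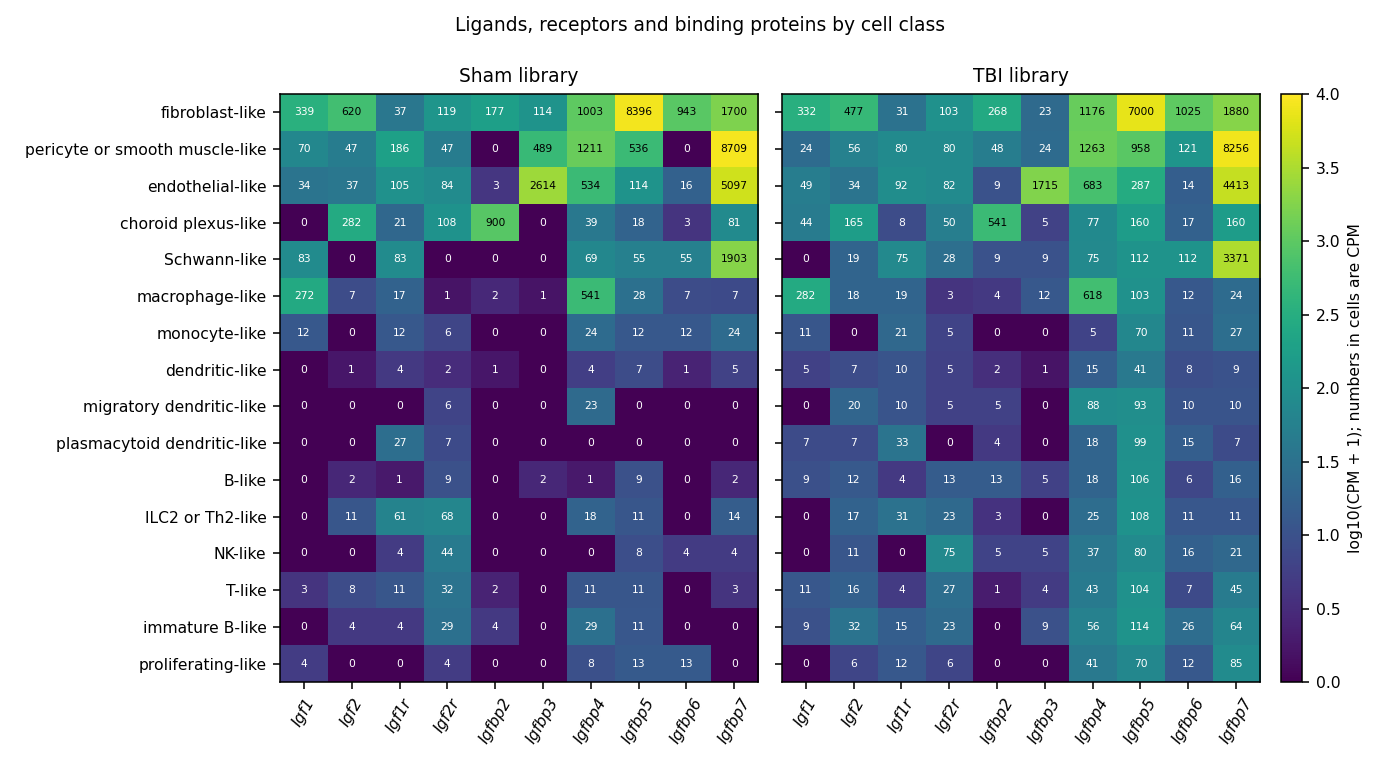
Level of each of the 10 genes (columns) in the 16 cell classes with at least 20 cells in both libraries (rows), for the Sham library (left) and the TBI library (right). Colour gives log10(CPM + 1) and the number in each square is the CPM. Most of the signal sits in the rows of fibroblast-like, pericyte or smooth muscle-like, endothelial-like and choroid plexus-like cells, and Igf1 and Igfbp4 are also high in macrophage-like cells.

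Transcripts of the system were found mainly in stromal, vascular and choroid plexus cells, and those of Igf1 and Igfbp4 also in macrophages. In 9 of the 10 genes the class with the highest level was the same in both libraries, and Igf1r was the exception. Fibroblast-like cells led for Igf1, Igf2, Igf2r, Igfbp5 and Igfbp6, pericyte or smooth muscle-like cells for Igfbp4 and Igfbp7, endothelial-like cells for Igfbp3 and choroid plexus-like cells for Igfbp2. The pericyte or smooth muscle-like class is small, with 23 Sham and 72 TBI cells, and its named order is correspondingly loose. The median fibroblast-like cell had a UMI of 4 of the 10 genes in either library, whereas the median B-like, T-like, NK-like or dendritic-like cell had none.

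Igf1, the growth hormone-regulated ligand (chr10:87858265-87937042), was nearly as high in macrophage-like as in fibroblast-like cells. In fibroblast-like cells it stood at 339 CPM in Sham (95% interval 283 to 403, 128 UMIs) and 332 CPM in TBI (309 to 357, 770 UMIs). In macrophage-like cells it stood at 272 CPM in Sham (247 to 299, 440 UMIs) and 282 CPM in TBI (266 to 300.3, 1024 UMIs). These classes stood apart from the rest. The next class was Schwann-like in Sham (82.7 CPM from 6 UMIs) and endothelial-like in TBI (49.3 CPM from 65 UMIs). Macrophage-like cells held more UMIs of all genes than fibroblast-like cells, 1615917 against 377701 in Sham and 3624843 against 2315873 in TBI. They held 72.6% of all Igf1 UMIs in Sham and 52.8% in TBI, and fibroblast-like cells held 21.1% and 39.7%.

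Within macrophage-like cells Igf1 was concentrated in 2 subclusters named border-like from Folr2, Cd209f and Cd163, which mark macrophages residing at the borders of the brain. The border-like cells stood at 587 CPM in Sham and 514 CPM in TBI, against 73.7 and 82.2 CPM in the other macrophage-like cells, a difference of 7.97-fold and 6.26-fold. Igfbp4 followed the same division, at 1128 and 1111 CPM in border-like against 171 and 192 CPM in the other macrophage-like cells. The border-like subcluster led by Cela1, Timd4 and Pla2g2d held 112 Sham and 186 TBI cells, and its Igf1 level was 899 CPM in Sham (95% interval 766 to 1047) and 568 CPM in TBI (488 to 656). The border-like subcluster led by Mmp9, Lyve1 and Colec12 held 59 and 215 cells and stood at 459 and 502 CPM with intervals that overlap. The subcluster led by S100a4, Plac8 and Ear2 was low in Igf1 in both libraries, at 31.1 CPM in Sham and 18.4 CPM in TBI, and the one led by the hemoglobin genes Hba-a2, Hba-a1 and Hbb-bs stood at 346 CPM (20 UMIs) and 137 CPM (10 UMIs). Igfbp4 was itself among the leading genes of that hemoglobin-led subcluster, which was not named border-like. High Igfbp4 was therefore not particular to the border-like subclusters.

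Among fibroblast-like cells Igf1 was highest in the subcluster led by Rbpjl, Epha3 and Matn4, at 652 CPM in Sham (16 cells) and 877 CPM in TBI (77 cells). Among the subclusters with at least 10 Sham cells it was lowest in the one led by Ptgds, Nnat and Coch, with 1 UMI in 16 Sham cells and 101 CPM in TBI (104 cells).

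Igf2, the imprinted fetal growth factor (chr7:142650766-142666816), was led by fibroblast-like cells, at 620 CPM in Sham (95% interval 543 to 704, 234 UMIs) and 477 CPM in TBI (449 to 506, 1105 UMIs). Choroid plexus-like cells, named from Ttr, Folr1, Kl and Otx2, came second in both libraries, at 282 CPM in Sham (94 UMIs) and 165 CPM in TBI (130 UMIs). A single cell held 29 of the 130 TBI UMIs. The subcluster of endothelial-like cells named arterial-like stood at 204 and 142 CPM, while the other endothelial-like subclusters were between 0 and 48.0 CPM. Few Igf2 UMIs were found in macrophage-like cells, at 7.43 and 18.2 CPM.

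Igf1r, which encodes the signalling receptor (chr7:67952827-68233668), gave only 202 Sham and 385 TBI UMIs in all. It was spread over more classes than either ligand. Endothelial-like cells stood at 105 CPM in Sham (95% interval 81.4 to 134, 65 UMIs) and 91.8 CPM in TBI (76.1 to 110, 121 UMIs), and held 32.2% and 31.4% of its UMIs. Pericyte or smooth muscle-like cells stood at 186 CPM from 8 UMIs in Sham and at 80.5 CPM from 10 UMIs in TBI, with intervals that span the endothelial values, so that the order of these classes was not resolved at this depth. Schwann-like cells followed at 82.7 and 74.7 CPM from 6 and 8 UMIs. In the classes with fewer than 20 Sham cells, gamma-delta or Th17-like T cells had 20 Igf1r UMIs in 14 Sham cells (428 CPM) and 17 in 31 TBI cells (169 CPM), and neutrophil-like cells had 15 UMIs in 16 Sham cells (325 CPM) and 15 in 26 TBI cells (162 CPM). Fibroblast-like cells, the leading class of both ligands, had an Igf1r level of 37.1 CPM in Sham and 31.1 CPM in TBI, and macrophage-like cells 17.3 and 18.8 CPM.

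Igf2r, which encodes the IGF2-clearing and mannose 6-phosphate receptor (chr17:12682406-12769664), was highest in fibroblast-like cells at 119 CPM in Sham (45 UMIs) and 103 CPM in TBI (238 UMIs). Endothelial-like cells stood at 84.3 and 81.9 CPM, and choroid plexus-like cells at 108 CPM in Sham (36 UMIs) and 49.5 CPM in TBI (39 UMIs). The Sham intervals of these classes overlap. NK-like cells had 43.9 and 74.8 CPM from 11 and 14 UMIs, and T-like cells 32.1 and 27.2 CPM. Levels were low in macrophage-like and dendritic-like cells. Macrophage-like cells had 1 Igf2r UMI among 1615917 in Sham (0.619 CPM, up to 3.45 by counting error) and 11 among 3624843 in TBI (3.03 CPM, 1.51 to 5.43), and dendritic-like cells stood at 2.21 and 4.96 CPM.

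**Figure D2:**
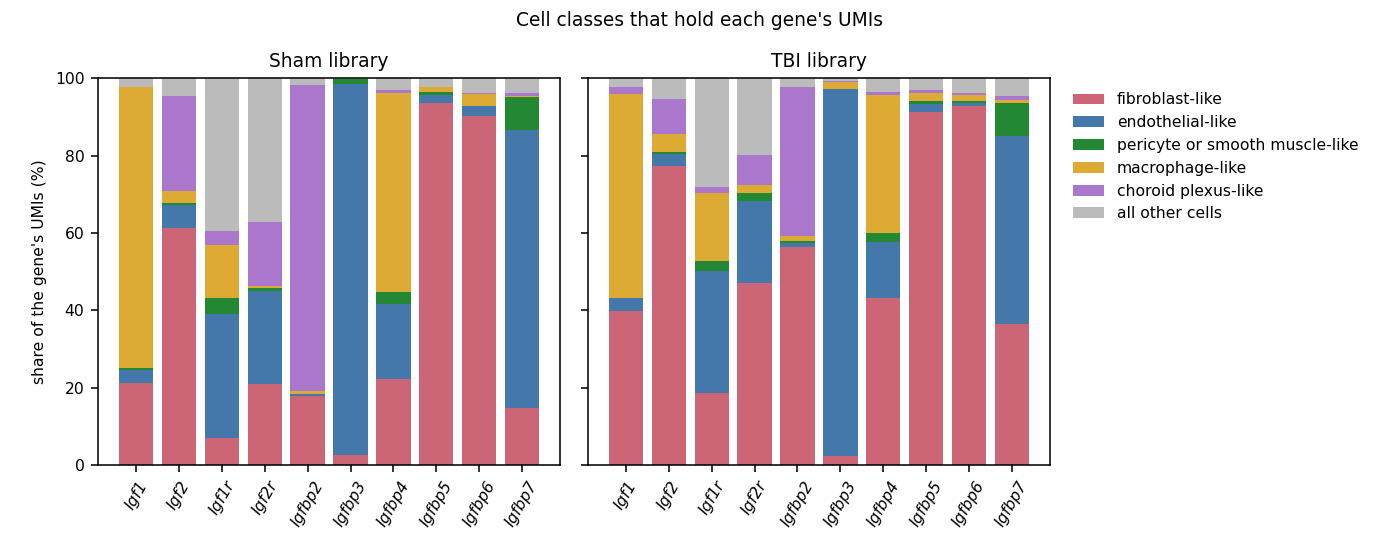
Share of each gene's UMIs (vertical axis, percent) held by 5 cell classes and by all other cells, for the Sham library (left) and the TBI library (right); each bar adds up to 100%. Igfbp5 and Igfbp6 come mostly from fibroblast-like cells and Igfbp3 from endothelial-like cells in both libraries. The Igf1, Igf2, Igf1r, Igf2r, Igfbp2, Igfbp4 and Igfbp7 bars hold a larger fibroblast-like part in the TBI library.

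Igfbp3, which encodes the main carrier of IGF1 in blood (chr11:7206086-7213923), was almost confined to endothelial-like cells, which held 1612 of its 1680 UMIs in Sham and 2262 of 2381 in TBI. Its level there was 2614 CPM in Sham (95% interval 2488 to 2745) and 1715 CPM in TBI (1645 to 1787). A UMI was seen in 175 of 309 Sham cells (56.6%) and in 276 of 579 TBI cells (47.7%). Within endothelial-like cells the gene divided the vessel types. The capillary-like subcluster stood at 4094 CPM in Sham and 3262 CPM in TBI, the subcluster led by Maf, Prdm1 and Dgkh at 3936 and 2972 CPM, and the arterial-like one at 2428 and 2067 CPM. The venous-like subcluster stood at 27.9 CPM in Sham (3 UMIs in 48 cells) and 22.4 CPM in TBI (8 UMIs in 136 cells). The subcluster led by Slc38a5, Ptn and Ccdc141 had no Igfbp3 UMI in 16 Sham or 42 TBI cells, which allows up to 92.5 and 25.9 CPM. In Sham 1 cell held 34 of the 43 Igfbp3 UMIs of fibroblast-like cells, and another all 21 of pericyte or smooth muscle-like cells. In TBI fibroblast-like cells the cell with most held 14 of 53, and 28 of the 53 lay in predicted doublets.

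Igfbp7, which encodes a vascular matrix protein that binds IGFs only weakly (chr5:77349240-77408041), was highest in pericyte or smooth muscle-like cells at 8709 CPM in Sham (374 UMIs) and 8256 CPM in TBI (1026 UMIs). One Sham cell held 180 of the 374 UMIs, and without it the level was 7277 CPM, still above every other class. Endothelial-like cells came next at 5097 CPM in Sham (95% interval 4921 to 5279) and 4413 CPM in TBI (4300.0 to 4528). As with Igfbp3, the venous-like subcluster was low, at 363 and 624 CPM against 6098 and 5820 CPM in the other endothelial-like cells. The subcluster led by Slc38a5, Ptn and Ccdc141, in which Igfbp3 was not detected, did carry Igfbp7 at 1604 and 1925 CPM. Schwann-like cells stood at 1903 and 3371 CPM, and fibroblast-like cells at 1700 and 1880 CPM.

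**Figure D3:**
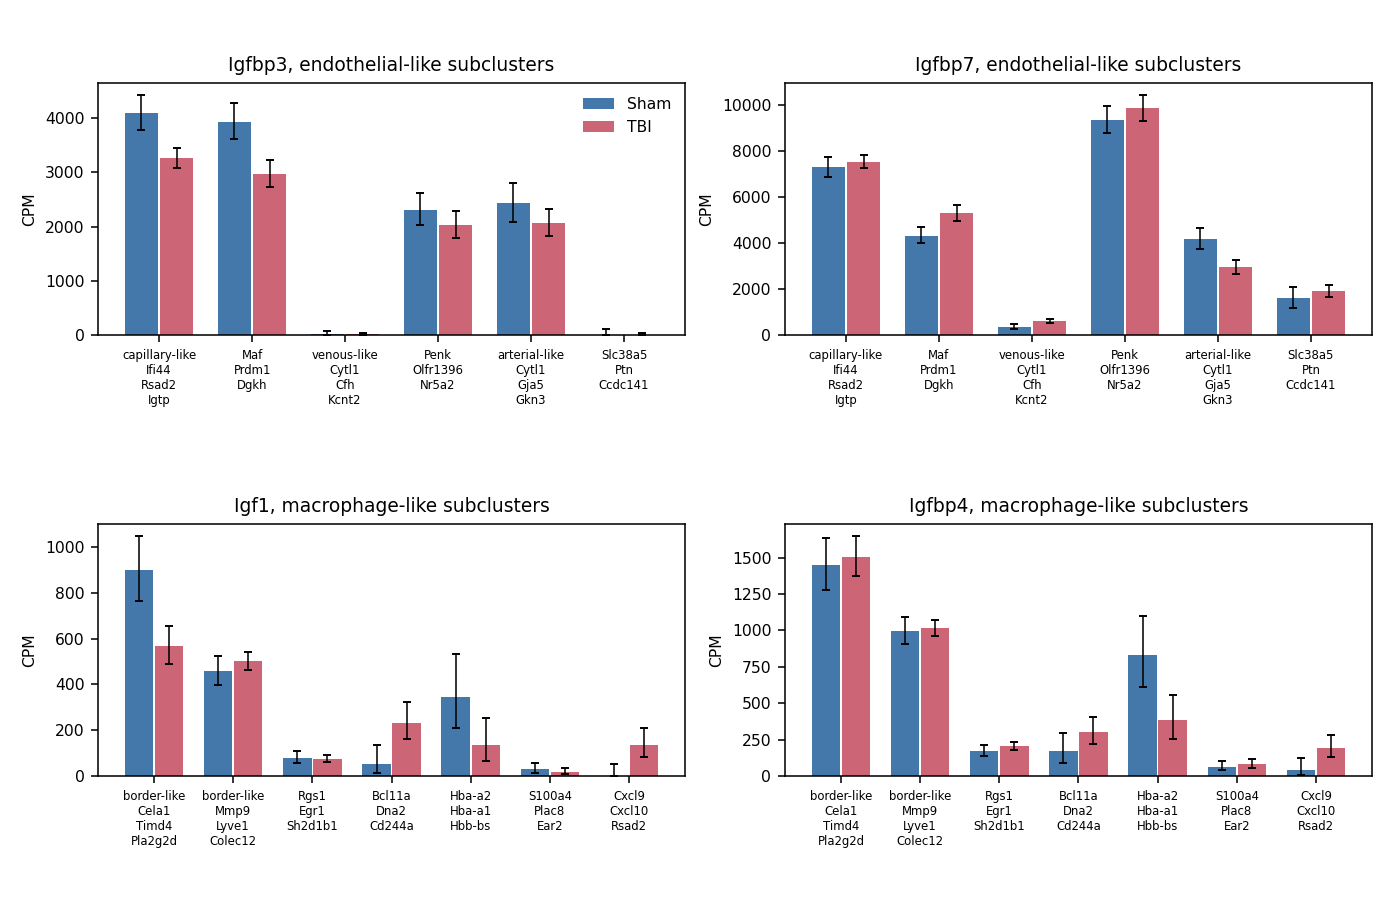
Levels (CPM, vertical axes from 0) of Igfbp3 and Igfbp7 in endothelial-like subclusters and of Igf1 and Igfbp4 in macrophage-like subclusters with at least 10 Sham cells, in the Sham (blue) and TBI (red) libraries; bars give the level, error bars the exact 95% Poisson interval, and the labels each subcluster's 3 leading genes. Igfbp3 is close to 0 in the venous-like subcluster and in the one led by Slc38a5, and the border-like macrophage subclusters carry the highest Igf1 and high Igfbp4.

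Igfbp5, which encodes a binding protein that adheres to extracellular matrix, had 3387 UMIs in Sham and 17762 in TBI. Fibroblast-like cells held 93.6% and 91.3% of them, at 8396 CPM in Sham (95% interval 8106 to 8693) and 6999.5 CPM in TBI (6892 to 7108). It was not uniform among fibroblast-like cells. The subclusters led by Penk, Mia and Ptgds (12959 CPM in Sham and 8768 CPM in TBI) and by Rbpjl, Epha3 and Matn4 (12382 and 10443 CPM) were high, and the one led by Ptgds, Nnat and Coch was low (1682 and 1242 CPM). The subcluster led by the leukocyte genes Alox5ap, Fcer1g and Ighm stood at 1713 CPM in Sham (40 UMIs in 25 cells) and 6862 CPM in TBI (1661 UMIs in 83 cells). Pericyte or smooth muscle-like cells were second, at 536 CPM from 23 UMIs and 958 CPM from 119 UMIs.

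Igfbp6, which encodes a binding protein that prefers IGF2 (chr15:102144362-102149511), had the same leading class, at 943 CPM in Sham (95% interval 847 to 1046, 356 UMIs) and 1025 CPM in TBI (984 to 1067, 2374 UMIs). In contrast to Igfbp5, it was low in the subcluster led by Rbpjl, Epha3 and Matn4 (391 and 285 CPM) and high in the one led by Ptgds, Nnat and Coch (1374 and 1462 CPM). The subcluster led by Penk, Mia and Ptgds was high for both genes, with Igfbp6 at 1609 and 1506 CPM.

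Igfbp4, whose product is cleaved by the protease PAPP-A to release ligand (chr11:99041244-99054392), was shared among vascular, stromal and myeloid classes. Pericyte or smooth muscle-like cells stood at 1211 and 1263 CPM, fibroblast-like cells at 1003 CPM in Sham (379 UMIs) and 1176 CPM in TBI (2723 UMIs), endothelial-like cells at 534 and 683 CPM, and macrophage-like cells at 541 and 618 CPM. One Sham pericyte or smooth muscle-like cell held 26 of that class's 52 UMIs, and with the cell of most UMIs left out of each class, a step added after the data had been seen, fibroblast-like cells led in both libraries (886 and 1157 CPM). Among endothelial-like subclusters the venous-like one was the highest, at 800 and 1109 CPM, the reverse of its place for Igfbp3 and Igfbp7.

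Igfbp2, which encodes a binding protein abundant in cerebrospinal fluid, was led by choroid plexus-like cells, at 900.3 CPM in Sham (95% interval 801 to 1008, 300 UMIs in 60 cells) and 541 CPM in TBI (491 to 595, 426 UMIs in 134 cells). Fibroblast-like cells came second at 177 CPM in Sham (137 to 225, 67 UMIs) and 268 CPM in TBI (247 to 290, 621 UMIs). Within them its level was highest in the subcluster led by Ptgds, Nnat and Coch, at 645 CPM in Sham (23 UMIs in 16 cells) and 674 CPM in TBI (221 UMIs in 104 cells). The neighbouring gene on the chromosome, Igfbp5, was at its lowest there among the subclusters with at least 10 Sham cells. In endothelial-like cells Igfbp2 stood at 3.24 and 9.10 CPM.

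Over whole libraries, 7 of the 10 genes were at least 1.5-fold higher in TBI and none was lower by that margin. For comparison, 13.1% of the 11704 genes with at least 100 UMIs were higher and 3.35% were lower. The ratio was 1.80 for Igf1 (77.0 against 139 CPM), 2.11 for Igf2 (48.6 against 102 CPM), 2.09 for Igfbp4 (216 against 452 CPM), 2.96 for Igfbp5 (431 against 1274 CPM) and 3.66 for Igfbp6 (50.1 against 183 CPM). Igfbp2 (48.1 against 79.1 CPM) and Igfbp7 (555 against 858 CPM) were just past the margin at 1.65 and 1.54. Igf1r at 25.7 and 27.6 CPM, Igf2r at 27.5 and 36.3 CPM and Igfbp3 at 214 and 171 CPM were within it. The median log2 ratio of the 10 genes was 0.78, beside 0.08 over all genes.

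These whole-library ratios moved with the make-up of the libraries. The levels that the Sham classes would give at the TBI mixture of classes were computed for each gene. They came to 133 CPM for Igf1, 127 CPM for Igf2, 378 CPM for Igfbp4, 1435 CPM for Igfbp5, 163 CPM for Igfbp6 and 870 CPM for Igfbp7. The measured TBI levels were between 0.807 and 1.19 times those values in these 6 genes, and 0.966 times in Igfbp2. The largest departure was that of Igfbp3, where the mixture would give 271 CPM and 171 CPM was measured, a ratio of 0.630. Igf1r and Igf2r, at 0.825 and 0.874 times, were below it as well. In a whole-library sum, fewer cells of a type and less RNA per cell cannot be told apart. A difference between cell suspensions and one between meninges cannot be told apart either with 1 library each.

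**Figure D4:**
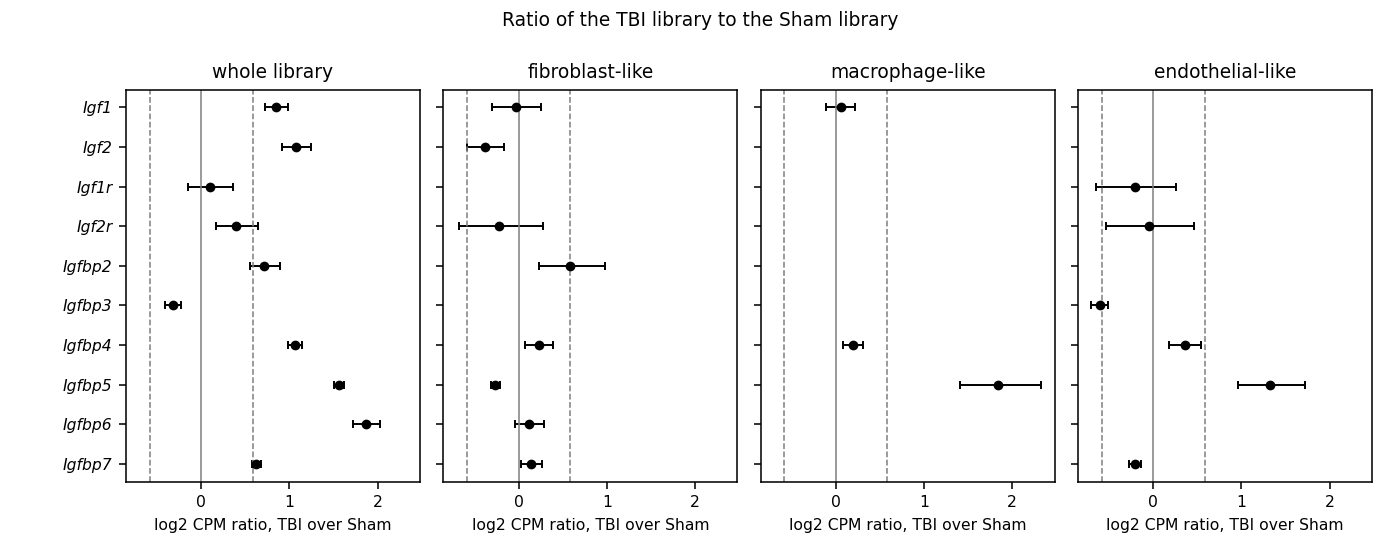
Log2 ratio of CPM in the TBI library over the Sham library (horizontal axis) for the genes with at least 100 UMIs in the whole library and in 3 cell classes; points give the ratio, bars the exact 95% counting interval, dashed lines a ratio of 1.5 in either direction. The whole-library points lie mostly to the right of the upper line, whereas within fibroblast-like cells all lie between the lines except Igfbp2, which sits at the upper one.

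Within fibroblast-like cells 1 of the 8 genes with at least 100 UMIs was past 1.5-fold, Igfbp2, which was higher in TBI. The background was 5.77% of 5114 genes higher and 4.77% lower. The log2 ratio of Igfbp2 was 0.59 (95% interval 0.23 to 0.98), at the margin itself. It was 0.39 without predicted doublets, 0.28 with every cell given equal weight and 0.16 when each cell was assigned by its own marker genes. The Igfbp2-rich subcluster led by Ptgds, Nnat and Coch held 9.44% of the fibroblast-like UMIs in Sham and 14.2% in TBI. The Sham subcluster levels at the TBI mixture of subclusters would give 212 CPM, and 268 CPM is 1.26 times that value. The other 7 genes had log2 ratios from -0.38 (Igf2) to 0.23 (Igfbp4). With every cell given equal weight the direction turned for Igfbp5 (from -0.26 to 0.19) and Igf2r (from -0.23 to 0.19), and Igfbp6 and Igfbp7 stood at 0.45 and 0.53. The median over the 8 genes was 0.04, beside -0.01 over all genes.

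Within macrophage-like cells 3 genes had 100 UMIs. Igf1 and Igfbp4 were close to equal in the libraries, with log2 ratios of 0.05 (-0.11 to 0.22) and 0.19 (0.08 to 0.31). With every cell given equal weight both directions turned, to -0.34 and -0.15. Igfbp5 was higher in TBI, at 28.5 CPM in Sham (46 UMIs) and 103 CPM in TBI (373 UMIs), where the background was 2.05% of 5813 genes higher and 1.34% lower. The fibroblast collagen gene Col1a1 was also higher in these cells, at 20.4 and 38.1 CPM.

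Within endothelial-like cells 2 of 6 genes were past the margin, Igfbp3, which was lower in TBI, and Igfbp5, which was higher. The background was 3.40% of 3704 genes higher and 1.67% lower. The log2 ratio of Igfbp3 was -0.61 (95% interval -0.70 to -0.51), and it was -0.43 when every cell was given equal weight, which is within the margin. The 4 subclusters with most Igfbp3 (capillary-like, arterial-like, and those led by Maf and by Penk) were each lower in TBI, but by a smaller ratio than the class as a whole, and the venous-like subcluster, which is nearly without Igfbp3, held 15.5% of Sham and 23.5% of TBI endothelial-like cells. With the Sham subcluster levels at the TBI mixture of subclusters, 2091 CPM would be found, so that 1715 CPM is 0.820 times that value. Igfbp7 was within the margin (log2 ratio -0.21), as were Igf1r (-0.21), Igf2r (-0.05) and Igfbp4 (0.36). Igfbp5 stood at 114 CPM in Sham (70 UMIs) and 287 CPM in TBI (378 UMIs), and the fibroblast gene Dcn at 34.1 and 172 CPM in the same cells.

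In choroid plexus-like cells 4 genes had 100 UMIs, with 2 lower and 2 higher in TBI, against a background of 4.79% of 1421 genes lower and 3.52% higher. Igfbp2 (log2 ratio -0.74, 95% interval -0.95 to -0.52) and Igf2 (-0.78, -1.17 to -0.37) were lower. Leaving out the cell with most UMIs of each gene gave -0.60 and -0.96. Igfbp5 and Igfbp7 were higher, at 3.04 and 0.96 on the log2 scale. One TBI cell held 82 of the 126 Igfbp5 UMIs and 1 held 37 of the 126 Igfbp7 UMIs. Without the cell of most UMIs the ratios were 2.35 and 0.78. Igfbp7 was then still past the margin, whereas Igfbp5 was left with fewer than the 100 UMIs needed to be counted. Predicted doublets held 67.5% of the TBI Igfbp5 UMIs and 45.2% of the TBI Igfbp7 UMIs in this class. In Schwann-like cells Igfbp7 was the only member with 100 UMIs and was higher in TBI, at 1903 CPM from 138 UMIs in 35 cells and 3371 CPM from 361 UMIs in 46 cells. The background in that class was 11.3% of 238 genes higher and 4.62% lower. In pericyte or smooth muscle-like cells Igfbp5 was past the margin (log2 ratio 0.81), and it was within it (0.45) without the cell of most UMIs. Igfbp4 went the other way with that step, from 0.05 to 0.65, which is past the margin. The background there was 14.7% of 204 genes higher and 9.80% lower.

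Igfbp5 was also counted at low levels in lymphocytes. In T-like cells it stood at 10.7 CPM in Sham (7 UMIs) and 104 CPM in TBI (103 UMIs), the only member with 100 UMIs in that class, where 2.21% of 2441 genes were higher and 2.01% lower. In B-like cells it stood at 8.84 CPM from 10 UMIs and 106 CPM from 87 UMIs. A UMI was seen in 2.43% of Sham and 24.9% of TBI B-like cells, or in 1.50% and 10.5% after thinning each cell to 1000 UMIs. In T-like cells the shares were 3.91% and 26.4%, or 2.86% and 9.48% thinned. Median depths were 3078 and 2662 UMIs in B-like and 3430 and 3221 in T-like cells. Fibroblast-like cells, at median depths of 1904 and 2245 UMIs, had a UMI in 74.1% and 86.4% of cells.

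Col1a1, Col1a2, Dcn and the members other than the receptors were also higher in TBI in the pooled leukocyte classes. This pool is the sum of the lymphocyte, dendritic, monocyte, neutrophil and proliferating classes, and it holds 4764372 Sham and 5507560 TBI UMIs. No share over all genes is given for it, so that its ratios cannot be compared with a background. Igfbp5 was at 8.61 CPM in Sham and 81.0 CPM in TBI there, Col1a1 at 4.41 and 28.5, Col1a2 at 3.57 and 28.7, and Dcn at 2.73 and 20.9 CPM. Members led by fibroblast-like cells (Igf1, Igf2 and Igfbp6) were 4.90-fold, 4.90-fold and 6.06-fold higher in TBI. Members led by other classes were higher as well, with ratios of 5.77 for Igfbp2, 5.62 for Igfbp3, 3.57 for Igfbp4 and 6.23 for Igfbp7, from 2 to 39 UMIs in Sham. In contrast, the receptors were level, with Igf1r at 15.3 CPM (95% interval 12.0 to 19.3) and 16.3 CPM (13.1 to 20.1), and Igf2r at 16.8 CPM (13.3 to 20.9) and 16.5 CPM (13.3 to 20.3). Relative to fibroblast-like cells of the same library, Igfbp5 in these classes came to 0.102% in Sham and 1.16% in TBI. Barcodes with more than 50% hemoglobin UMIs, which the filters remove, carried it too, at 148 CPM of their other UMIs in 562 Sham barcodes and 599 CPM in 391 TBI barcodes. These barcodes held 45 Igfbp5 and 3 Col1a1 UMIs in Sham, and 98 and 54 in TBI. Igfbp5 per Col1a1 UMI was therefore much higher in the Sham barcodes than in the TBI ones.

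RNA released from 1 kind of cell would keep its genes in 1 proportion wherever it is captured, which is assumed here and was not tested. The hemoglobin barcodes, with 3 Col1a1 UMIs in Sham, differed in this proportion between the libraries, and so did fibroblast-like cells. A difference between libraries does not test the assumption, which concerns 1 library at a time. In fibroblast-like cells there were 2.47 Igfbp5 UMIs per Col1a1 UMI in Sham and 1.61 in TBI. In the pooled leukocyte classes the ratio was 1.95 in Sham (95% interval 1.13 to 3.48, 41 and 21 UMIs) and 2.84 in TBI (2.36 to 3.43, 446 and 157 UMIs), so that the Sham interval holds the fibroblast value and the TBI interval lies above it. The fibroblast-like subclusters differ widely in Igfbp5, and which of them would shed RNA was not tested. Endothelial-like cells had 11.7 Igfbp5 UMIs per Col1a1 UMI in Sham and 5.48 in TBI, above fibroblast-like cells in both libraries. With Dcn in place of Col1a1 this order of endothelial-like cells was lost. They had 3.33 Igfbp5 UMIs per Dcn UMI in Sham (95% interval 2.02 to 5.72) and 1.67 in TBI (1.41 to 1.97). Fibroblast-like cells had 2.21 and 2.37. The pooled leukocyte classes had 3.15 in Sham (1.66 to 6.41) and 3.88 in TBI (3.15 to 4.80). As with Col1a1, their Sham interval holds the fibroblast-like value and their TBI interval lies above it. The share of free fibroblast RNA in the higher Igfbp5 of macrophage-like, T-like, B-like and choroid plexus-like cells in TBI was not tested. Their levels were at most 2.28% of the fibroblast-like level.

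**Figure D5:**
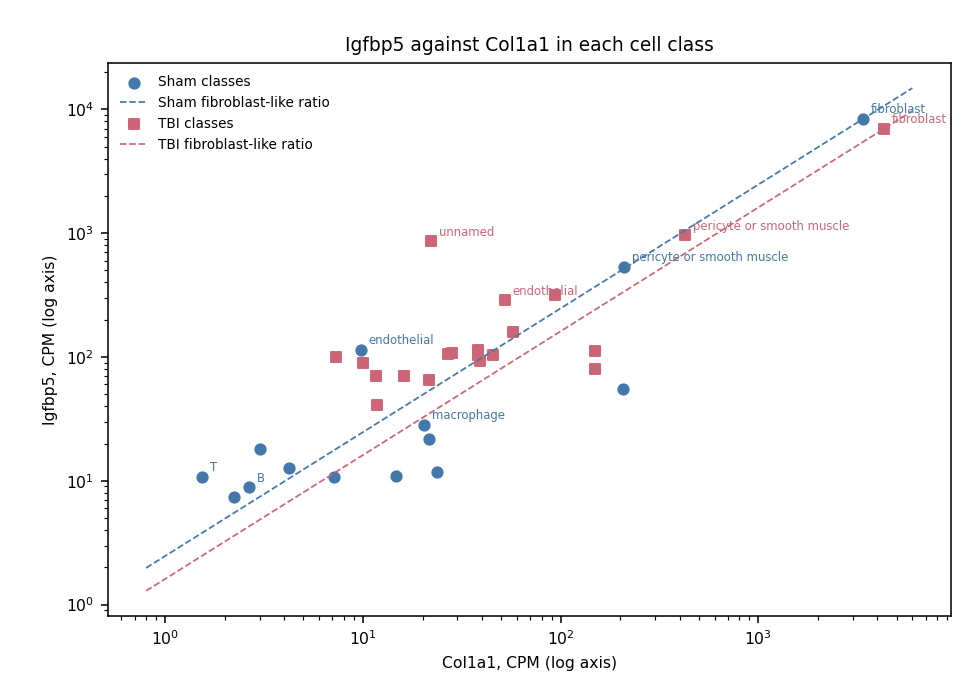
Igfbp5 (vertical axis) against Col1a1 (horizontal axis), both in CPM on log axes, for each cell class with UMIs of both genes in the Sham (blue circles) and TBI (red squares) libraries; dashed lines give the ratio of the genes in fibroblast-like cells of each library. Most leukocyte classes sit further up and right in TBI than in Sham, with monocyte-like and neutrophil-like cells at 4 Col1a1 UMIs or fewer as exceptions for Col1a1, and endothelial-like cells lie above the lines in both.

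Of 45 other genes of the system listed for comparison, 33 had at least 100 UMIs in the whole libraries, and 8 were past 1.5-fold, all of them higher in TBI, where the share over all genes was 13.1% higher and 3.35% lower. All 8 had their highest level in fibroblast-like cells in both libraries. They were the binding-protein proteases Htra1 (32.2 against 117 CPM), Pappa (4.45 against 16.2) and Adam12 (4.07 against 19.7), the growth hormone receptor gene Ghr (7.75 against 20.4), the signalling adaptors Irs1 (6.10 against 13.3) and Grb10 (31.1 against 57.4), and the imprinted non-coding genes H19 (48.2 against 158) and Airn (4.58 against 7.53). H19 lies beside Igf2 and is expressed from the other parental allele, and Airn runs antisense to Igf2r. The median log2 ratio of the 33 genes was 0.15.

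Within fibroblast-like cells 18 of the listed genes had 100 UMIs, with Adam12 higher (63.5 against 101 CPM) and Pik3ca, which encodes a catalytic subunit of PI3 kinase, lower, beside 5.77% and 4.77% of all genes in that class. Pik3ca stood at 55.6 CPM in Sham (21 UMIs) and 34.5 CPM in TBI (80 UMIs). Its log2 ratio was -0.71 (95% interval -1.39 to 0.08), and that interval includes equal levels. The protease Htra1 stood at 537 and 609 CPM there, Pappa at 87.4 and 94.6 CPM, and H19 at 879 and 817 CPM. Over whole libraries 2 of the 22 genes for signalling below the receptors with 100 UMIs were past the margin, both higher in TBI. The share over all genes was 13.1% higher and 3.35% lower. Gsk3b, which had the most UMIs of these 22 genes, was at 87.1 and 90.7 CPM. Insr, the insulin receptor gene, was led by endothelial-like cells in both libraries, at 564 and 447 CPM. Socs2, a feedback inhibitor of growth hormone signalling, was led by migratory dendritic-like cells at 640 and 561 CPM. Igfals, whose product joins IGF complexes in blood, had 2 UMIs in Sham and 9 in TBI, and Ins1, Igfbp1, Irs4 and Igf2bp1 had none. Within macrophage-like cells 15 listed genes had 100 UMIs, and H19 was the only one past the margin (log2 ratio 1.04, higher in TBI), beside 2.05% of all genes there. Its level in these cells was low, at 21.7 CPM in Sham (35 UMIs) and 45.0 CPM in TBI (163 UMIs). T-like cells had 0 H19 UMIs in Sham and 36 in TBI, and choroid plexus-like cells 1 and 32. The share of free fibroblast RNA in these values was not tested.

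The genes whose pattern was most like each member were found from Pearson correlations of log2(CPM + 10) over 32 points, the 16 classes in each library, among 6353 genes with at least 500 UMIs. These points share libraries and free RNA, and the values are descriptive. Among the closest to Igf1 were Olfml3 (r = 0.84) and Rnase4, and closest to Igf2 were Ecrg4 (0.92), Plagl1 and Cdkn1c. Closest to Igf1r were Tns1 (0.90), Ptk2 and Cd151, and to Igf2r were Ddx50 (0.84), Tulp4 and Arl4a. For the binding proteins they were Ecrg4 (0.95), Trpm3 and Gsta4 for Igfbp2, Podxl (0.97), Jam2 and Sox18 for Igfbp3, Cp (0.92), Tspan4 and Ctsf for Igfbp4, Dcn (0.96), Mgp and Col1a1 for Igfbp5, Islr (0.93), Sfrp4 and Il33 for Igfbp6, and Fermt2 (0.97), Wwtr1 and Prss23 for Igfbp7.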

How the data were processed

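The authors deposited unnormalized UMI counts for each gene in each barcode, made with Cell Ranger on mm10 (2.1.1 per the labels, while the matrix headers name 3.1.0). The annotation release was not given in the sources used here, and gene positions are those of GENCODE on GRCm38. Cells with 150 to 5000 detected genes, at most 20% mitochondrial and at most 5% hemoglobin UMIs were kept. These held 501 to 29604 UMIs. Counts per 10000 were log-transformed, and 2000 variable genes (members and listed genes left out), 20 principal components, 20 neighbours and Leiden clustering at resolution 0.8 (scanpy 1.11.5, leidenalg 0.10.2) gave 28 clusters. A cluster was named where 3 or more markers of a class were among its 50 genes of highest fold over the median of cluster means. This rule was chosen from the class names it gave. Predicted doublets (33 Sham, 114 TBI cells) were left in.

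UMIs were summed per class and library. Ratios had 0.5 added to each sum, and a gene counted as past 1.5-fold where both libraries together held at least 100 UMIs. Intervals are exact Poisson or binomial ones, and UMIs of 1 cell are not independent of each other. Named were all members, the other listed genes past the fold or with the most UMIs in their group, and the 3 genes most like each member, of which 1 is not reported here. The members and lists were chosen with earlier results of these data known. Alternatives changed the doublet, gene-number, scaling, weighting, resolution, naming, UMI and fold choices. The counting steps were tested on simulated data. Both groups have 1 library, so no test was made. Immature B-like cells, whose cluster had more B than own markers among its leading genes, were not compared between groups by themselves.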

Additional observations from a re-analysis of the deposited data

Results flagged for a closer look

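Cells of 1 cluster could not be named and entered no comparison of classes (9 Sham and 47 TBI cells, led by Vtn, Meg3, Esm1, Edn3 and Cntnap2). They are part of the whole-library sums and of the levels computed at the TBI mixture. With more than 3 UMIs in each library, 3 binding proteins were above B-like cells beyond counting error in both libraries. Igfbp5 stood at 1908 CPM in Sham and 859 CPM in TBI, Igfbp7 at 763 and 396 CPM, and Igfbp4 at 382 and 385 CPM. Igfbp6, with 3 Sham UMIs, was also above B-like cells, at 229 and 264 CPM. One Sham cell held 18 of the 25 Igfbp5 UMIs, whereas the cell of most UMIs in TBI held 12 of 78. Col1a1 had 0 UMIs in these Sham cells and 2 in these TBI cells.

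Igfbp2 went in opposite directions in its leading classes. On the log2 scale TBI relative to Sham stood at -0.74 in choroid plexus-like cells and at 0.59 in fibroblast-like cells. With 1 library per group the difference between these ratios was not tested. Of the 300 Sham UMIs in choroid plexus-like cells 61 came from 1 cell, and the fibroblast-like ratio was at the margin of 1.5-fold.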

How the results depend on the processing

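No paired analysis was possible because each group is 1 library, and for the same reason no library could be left out. The number of members with the same leading class in both libraries was 7 to 9 of 10 under the alternatives, with Igf1 and Igf2r the genes that varied beside Igf1r. For Igfbp4 the leading class itself moved to fibroblast-like in both libraries when the cell of most UMIs was left out of each class. In fibroblast-like cells the count of members past 1.5-fold was 0 without predicted doublets, with a lower limit of 200 genes, with cells weighted equally, with cells assigned by their own markers and at a ratio of at least 2, and 2 at 20 UMIs. In macrophage-like cells it was 2 with cells assigned by their own markers and 5 at 20 UMIs, and in endothelial-like cells 1 with cells weighted equally and 1 at a ratio of at least 2. Over whole libraries it was 4 at a ratio of at least 2. No share over all genes is given under any of the alternatives, and the shares given above belong to the main settings only. The counts under the alternatives therefore show how the calls depend on the settings, and cannot be compared with a background. Scaling by the median ratio over genes, as in DESeq2, moved the whole-library log2 ratios by 0.11, which left 6 genes past the margin and put Igfbp7 within it, and moved class ratios by at most 0.03. Relative to the fibroblast-like value, Igfbp5 per Col1a1 UMI in the pooled leukocyte classes was 0.790 in Sham and 1.76 in TBI. With Dcn in place of Col1a1 the Sham value was 1.43. In TBI the pool had 3.88 Igfbp5 UMIs per Dcn UMI, against 2.37 in fibroblast-like cells. Without predicted doublets the TBI value per Col1a1 UMI was 2.17. The cause of these shifts was not tested. Of 159 single ratios recomputed, 138 stayed inside the counting interval of the reported ratio, 21 did not and none past the margin changed direction. Depth limited both receptors most, at 202 to 506 UMIs per library.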
